A study of Rattus norvegicus with 12 samples.

Results

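Gene expression in H9C2 cells that received a LITAF vector and went through hypoxia and reoxygenation (H/R) was compared with that in untreated cells kept under normoxia. The comparison covers 8 of the 12 libraries of the series, chosen by their group labels: 4 libraries of the LITAF group and 4 of the control group. H9C2 is an established line of myoblasts derived from embryonic rat heart, described in the labels as cardiomyoblasts of wild type genotype. Control cells were grown under normal oxygen and received neither H/R nor a lentiviral vector. Cells of the LITAF group, labelled LITAF overexpression, were given a lentiviral vector carrying LITAF before 8 h at 1% oxygen and 2 h of reoxygenation. The remaining 4 libraries, called the H/R group here, had an empty lentiviral vector and the same hypoxia and reoxygenation, and their values are set beside the others to show which changes were also present without the LITAF vector. The labels name neither the promoter of the vectors nor say whether transduced cells were a pool or a clone. H/R, the vector and LITAF were introduced together in the LITAF group, so in a difference from control these 3 cannot be told apart. The H/R group likewise differs from control by H/R and the empty vector together.

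Cells short of oxygen stabilise hypoxia-inducible factors, which switch on genes of glucose uptake, glycolysis and blood vessel growth. Return of oxygen adds oxidative and protein-folding stress, answered by heat shock factors, by the unfolded protein response of the endoplasmic reticulum and by NRF2, a transcription factor of antioxidant genes. LITAF is a small membrane-anchored zinc-binding protein of late endosomes and lysosomes that binds NEDD4-family ubiquitin ligases and ESCRT proteins. It was first described as a factor linked to the induction of TNF by bacterial lipopolysaccharide.

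Control libraries held 19205869 to 20735386 counts over 12531 to 12879 detected genes, and LITAF libraries 17243530 to 18383183 counts over 13430 to 13743 detected genes. Levels are given as CPM (counts scaled to a common library size) after TMM scaling, a correction for RNA composition, and differences as log2 ratios from 1 fit of all 12 libraries (edgeR quasi-likelihood test, adjusted p under 0.05 over 11398 genes). Deposited values that were not whole numbers made up 2.84 to 3.4% of the control columns and 11.9 to 12.6% of the LITAF columns. In addition, 72 gene IDs had rows that differed in the control columns alone, with the same H/R and LITAF values in each row, and were not tested. The labels do not say what made the columns differ, and any such difference in the making of control values cannot be told apart from the groups. The libraries of the LITAF group differed among themselves most along the first principal component of within-group variation (42.7%), with scores of 0.656 for replicate 1, 0.209 for replicate 3, -0.235 for replicate 4 and -0.63 for replicate 2. The labels call the replicates biological without saying that they came from separate cultures, and the p-values cover no more than library-to-library spread, which may be technical.

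The overexpressed gene was measured first. Litaf stood at 458, 485, 491 and 456 CPM in the control libraries and at 2691, 2008, 2532 and 2120 CPM in the LITAF libraries. The groups did not overlap, and the difference was 2.31 ± 0.11 on the log2 scale (SE; 4.95-fold, adjusted p = 2.75e-11). In the H/R group Litaf was at 549, 618, 573 and 598 CPM, a log2 difference from control of 0.31 (adjusted p = 0.0145), with no overlap between the H/R and control libraries. These counts hold native and vector transcripts together, as far as both match the annotated gene.

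Of the 11398 genes 7366 passed the test (64.6%): 3649 were higher in the LITAF group (32%) and 3717 lower (32.6%). The difference was at least 2-fold for 1221 of the higher genes (10.7% of all tested) and 1519 of the lower genes (13.3%). This balance turned with the scaling: 1483 were at least 2-fold higher and 1311 lower with upper-quartile scaling, and 1421 and 1352 with library totals. For 5939 genes (52.1%) every LITAF library lay on 1 side of every control library. The 95% interval of the difference lay within 1.5-fold in either direction for 3135 genes (27.5%), and such genes are described here as being at the normoxia level. The median log2 difference over all tested genes was -0.00914.

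The state in the LITAF group was counted for the 2565 genes that differed at least 2-fold between the H/R group and control (22.5% of those tested; 1091 higher, 1474 lower). In the LITAF group 2171 of them (84.6%) still differed from control at least 2-fold in the same direction. These were 938 of the genes raised in the H/R group (86%) and 1233 of those lowered (83.6%). A further 302 (11.8%) still passed the test in the same direction with a difference under 2-fold. Another 84 (3.27%) neither passed the test nor had an interval narrow enough to be placed at the normoxia level. Only 5 genes were at the normoxia level, and 3 passed the test in the opposite direction. The comparisons with control share the 4 control libraries, so these shares are a description of the 3 groups and not separate evidence. With replicate numbers as a block in the fit, 8 genes in place of 5 were at the normoxia level. Without LITAF replicate 3 there were 3.

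**Figure D1:**
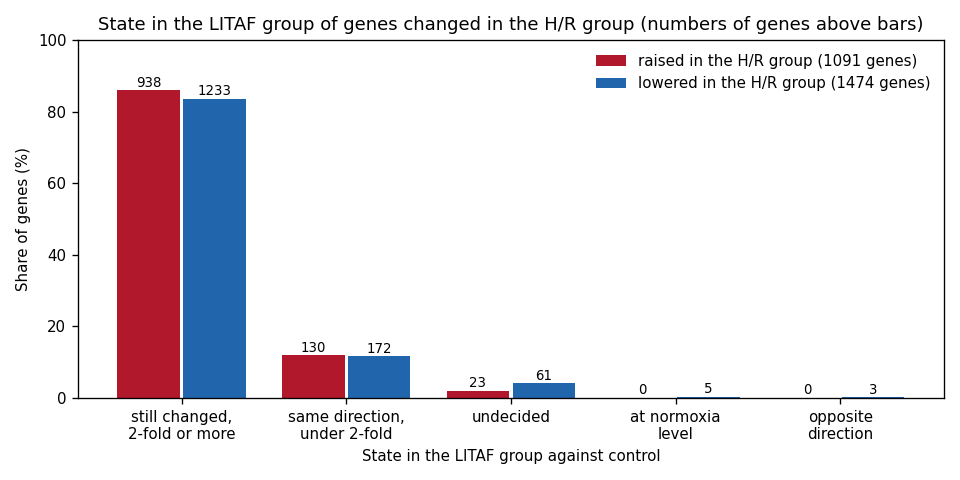
Share of the genes changed at least 2-fold in the H/R group (y axis, percent) by their state in the LITAF group, for the 1091 genes raised and the 1474 lowered in the H/R group. The bars for genes still changed at least 2-fold reach 86% and 83.6%, and the bars for the normoxia level hold 0 and 5 genes.

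Between the LITAF and H/R groups 556 of all tested genes differed (4.88%). This share, and the 32% higher and 32.6% lower than control, are the background for the list counts below. Among the 2565, 123 differed from the H/R group in the direction of control (12 raised and 111 lowered in the H/R group). Another 75 differed from it in the direction away from control (46 raised, 29 lowered). The 123 include the 3 genes that passed the test on the opposite side of control. The H/R libraries both picked the 2565 and entered this comparison, so these counts are a description and not separate evidence. In the 123 genes a median of 56.9% of the log2 difference from control remained.

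Among genes with a mean log2 CPM of at least 2 and groups that did not overlap, the 12 largest rises included 7 genes of the heat shock and ER lists: Hspa1b, Hspa1l, Zfand2a, Hspb1, Hspa5, Creld2 and Herpud1. The other 5 were Hmox1, Srxn1, Akr1b10, Dusp5 and Bnip3. Hspa1b, an inducible cytosolic HSP70 chaperone, was at 5.71, 5.56, 5.04 and 6.58 CPM in control and at 906, 978, 800 and 1153 CPM in the LITAF libraries. It rose 168-fold (log2 7.39 ± 0.18, adjusted p = 7.27e-14), and its near-identical copies can share reads with it. Hspa1l, an HSP70 encoded beside it, rose from 0.467 ± 0.168 to 12.4 ± 1.55 CPM (SD, n = 4). Zfand2a, which links arsenite and heat stress to the proteasome, was at 60.4, 82.2, 54.4 and 77 CPM in control and 1598, 1348, 1211 and 1364 CPM in the LITAF libraries (log2 4.33 ± 0.14). Its level was also 1.49-fold above that of the H/R group (adjusted p = 0.0144).

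Of 27 heat shock proteins and cochaperones tested, 20 rose and 3 fell. Their median log2 difference was 0.85, against 1.15 for the same genes in the H/R group. The small heat shock protein Hspb1 rose by a log2 of 3.34 ± 0.15, the HSP110 chaperone Hsph1 by 2.62 ± 0.13 and the HSP70 cochaperone Bag3 by 2.41 ± 0.12. Dnajb1, the HSP40 partner of HSP70, was at 65.7, 55, 50.2 and 69.6 CPM in control, 210, 207, 208 and 220 CPM in the H/R group and 385, 422, 380 and 405 CPM in the LITAF group. It was thus high in every LITAF library, 1.89-fold above the H/R group (adjusted p = 5.56e-05). Dnajb1 and Zfand2a were the only members of this list to differ between those groups. The muscle-enriched chaperone Hspb7 fell from 495 ± 58.3 to 177 ± 16.7 CPM, and the lens and muscle chaperone Cryab was at 333 ± 75 and 332 ± 38.6 CPM, inside the 1.5-fold interval. Among genes with whole-number values in all columns, 11 of 16 members rose and 2 fell.

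In the endoplasmic reticulum, 23 of 25 folding and unfolded protein response genes rose and none fell (median log2 1.59, against 1.64 for the same genes in the H/R group). Hspa5, the luminal HSP70 chaperone BiP, was at 88.3, 98.8, 125 and 121 CPM in control and at 2284, 1967, 1899 and 1947 CPM in the LITAF libraries (log2 4.22 ± 0.13, adjusted p = 8.71e-13). Creld2, a luminal protein of the same stress response, rose from 6.07 ± 0.855 to 69.8 ± 5.72 CPM, and Herpud1, a part of ER-associated degradation, from 47.5 ± 11.7 to 499 ± 23.8 CPM. The HSP90 of the ER, Hsp90b1, rose 7.48-fold, the secreted survival factor Manf 7.62-fold and the transcription factor gene Xbp1 3.55-fold. No member of the list differed between the LITAF and H/R groups. The calnexin gene Canx had a log2 difference of 0.28 ± 0.14 (adjusted p = 0.079), and Derl3 was low in both groups at 0.623 and 0.528 CPM.

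Promoters of Hspa5, Creld2 and Hsph1 are shown because these genes rose and hold the letters of the stress elements known for their families. Each run is the 250 bases before the annotated start in RefSeq's GRCr8 assembly, 5′ to 3′ on the gene's strand. Capitals mark the ER stress element in the first 2, on the forward strand in Hspa5 and as its reverse complement in Creld2, and a heat shock element in Hsph1.
Hspa5 (chr3:38452766-38453015, plus strand): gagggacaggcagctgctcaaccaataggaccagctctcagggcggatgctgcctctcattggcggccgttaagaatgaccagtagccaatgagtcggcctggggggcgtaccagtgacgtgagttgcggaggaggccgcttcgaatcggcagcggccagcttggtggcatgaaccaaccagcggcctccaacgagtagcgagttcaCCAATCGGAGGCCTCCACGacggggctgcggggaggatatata
Creld2 (chr7:121789134-121789383, plus strand): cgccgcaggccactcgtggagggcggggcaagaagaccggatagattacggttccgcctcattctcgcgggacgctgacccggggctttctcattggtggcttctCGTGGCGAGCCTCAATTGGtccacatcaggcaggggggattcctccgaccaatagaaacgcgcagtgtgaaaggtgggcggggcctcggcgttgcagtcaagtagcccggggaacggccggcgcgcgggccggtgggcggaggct
Hsph1 (chr12:10427118-10427367, plus strand): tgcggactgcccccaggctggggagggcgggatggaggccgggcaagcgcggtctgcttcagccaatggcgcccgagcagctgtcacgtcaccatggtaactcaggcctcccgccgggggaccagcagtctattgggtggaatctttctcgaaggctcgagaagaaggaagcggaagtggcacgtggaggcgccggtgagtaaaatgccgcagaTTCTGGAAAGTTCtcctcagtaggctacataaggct
The ER stress element, CCAAT and CCACG with 9 bases between them on either strand, was found in 8 of 19 members of the ER list that have a promoter in the table (42.1%) and in 15 of 9395 tested genes with one (0.16%). Among the 8 were Canx and Derl3, which did not rise. The heat shock element, searched on both strands, was in 4 of 22 heat shock genes (18.2%) and 38 of 9395 (0.404%). The 4 were Hspa8, Hspd1, Hspe1 and Hsph1, and of these only Hsph1 is among the rises given above. These are matches of letters, and binding was not measured.

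Genes of the ATF4 program, which restores amino acid supply under stress, moved in 1 direction: 25 of 26 rose (median log2 1.45). Ppp1r15a, which brings a phosphatase to the initiation factor eIF2, rose from 65.5 ± 19.2 to 513 ± 51.4 CPM. The amino acid transporter subunit Slc3a2 was at 155, 146, 147 and 183 CPM in control and 1253, 1223, 1068 and 1147 CPM in the LITAF libraries (7.44-fold). The pseudokinase Trib3 rose 6.8-fold and Atf4 itself 2.51-fold. Asns, asparagine synthetase, rose from 56.3 ± 9.7 to 236 ± 9.77 CPM, and was 1.36-fold above the H/R group (adjusted p = 0.0308). The glycyl-tRNA synthetase Gars1 was the member that did not pass (log2 0.18 ± 0.09, adjusted p = 0.102). Ddit3, the pro-apoptotic factor CHOP, had 2 differing control rows and was not tested: its control mean was 13.7 or 16.1 CPM, against 79.8 CPM after H/R and 61.5 CPM with the LITAF vector.

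NRF2 antioxidant genes followed the same direction, with 20 of 22 higher and 1 lower (median log2 1.02). Hmox1, the heme-degrading heme oxygenase 1, was at 55.2, 75.2, 73.3 and 74.1 CPM in control, 1808, 1894, 1747 and 2042 CPM in the H/R group, and 3157, 2716, 2308 and 2698 CPM in the LITAF group. All LITAF libraries were above all H/R libraries (1.45-fold, adjusted p = 0.0138), and the rise from control was 39.1-fold. Srxn1, sulfiredoxin, which restores oxidised peroxiredoxins, was at 1.38, 0.889, 1.34 and 1.4 CPM in control, 6.82, 6.33, 7.09 and 7.18 CPM after H/R, and 28.2, 24.3, 21.6 and 20.3 CPM in the LITAF group. It was 3.44-fold above the H/R group (adjusted p = 1.15e-06), and the 3 groups did not overlap. The quinone reductase Nqo1 rose 5.95-fold and differed from the H/R group by a log2 of -0.06 ± 0.11. The aldo-keto reductase Akr1b10 rose from 30.9 ± 7.83 to 424 ± 99.6 CPM. The transporter Abcc1 fell by 0.87 on the log2 scale, and Nfe2l2, which encodes NRF2, did not pass the test (log2 0.22 ± 0.16).

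Among 20 genes of iron handling, 9 rose and 4 fell. The ferritin light chain Ftl1 rose from 351 ± 47.9 to 2518 ± 232 CPM. The iron exporter Slc40a1 was at 6.98, 6.67, 5.92 and 6.09 CPM in control and 37.6, 20.6, 18.8 and 20.2 CPM in the LITAF libraries, with replicate 1 apart from the rest. The transferrin receptor Tfrc, which brings iron in, was at 190, 158, 145 and 145 CPM in control, 80.1, 79.4, 85.4 and 72.1 CPM after H/R, and 59.1, 23.7, 42.1 and 31.3 CPM in the LITAF group. Tfrc fell by 2.03 ± 0.21 from control and was 2.03-fold below the H/R group (adjusted p = 0.00796). Its LITAF libraries are spread in the order of the first within-group component, whose part in this result was not tested.

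Of 24 tested targets of hypoxia-inducible factors, 17 rose and 1 fell (median log2 1.42). Bnip3, a mitochondrial mitophagy receptor, was at 7.8, 6.22, 7.87 and 6.26 CPM in control and 96.1, 69.6, 84 and 83.7 CPM in the LITAF libraries, close to the 84.7 CPM of the H/R group. The glucose transporter Slc2a1 rose 8.64-fold and the endothelial growth factor Vegfa 6.53-fold. Adm, the vasodilator adrenomedullin, separated the groups: 10.3, 11.4, 13.9 and 13.6 CPM in control, 28.5, 31.6, 28.6 and 32 CPM after H/R and 95.1, 75.3, 70.1 and 69.1 CPM in the LITAF group. Adm was 2.56-fold above the H/R group (adjusted p = 6.46e-06). Hif1a itself had means of 77.1 and 75.8 CPM, with LITAF libraries at 114, 45.8, 82.9 and 60.6 CPM. These are spread in the order of the first within-group component, whose part in this result was not tested. Bhlhe40, a transcriptional repressor of the clock, was lower than control in the H/R group (log2 -0.82). In the LITAF group Bhlhe40 was back inside the 1.5-fold interval (log2 -0.16 ± 0.12).

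In glycolysis 13 of 16 genes rose and 2 fell (median log2 1.24). The neuron-type enolase Eno2 rose 8.69-fold, the liver-type phosphofructokinase Pfkl 5.8-fold and the aldolase Aldoa 5.2-fold. The 2 that fell were Ldhb and Pfkm: Ldhb, the heart-type lactate dehydrogenase subunit, fell from 1269 ± 109 to 303 ± 53.9 CPM and the muscle phosphofructokinase Pfkm from 469 ± 63.1 to 219 ± 44.8 CPM.

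**Figure D2:**
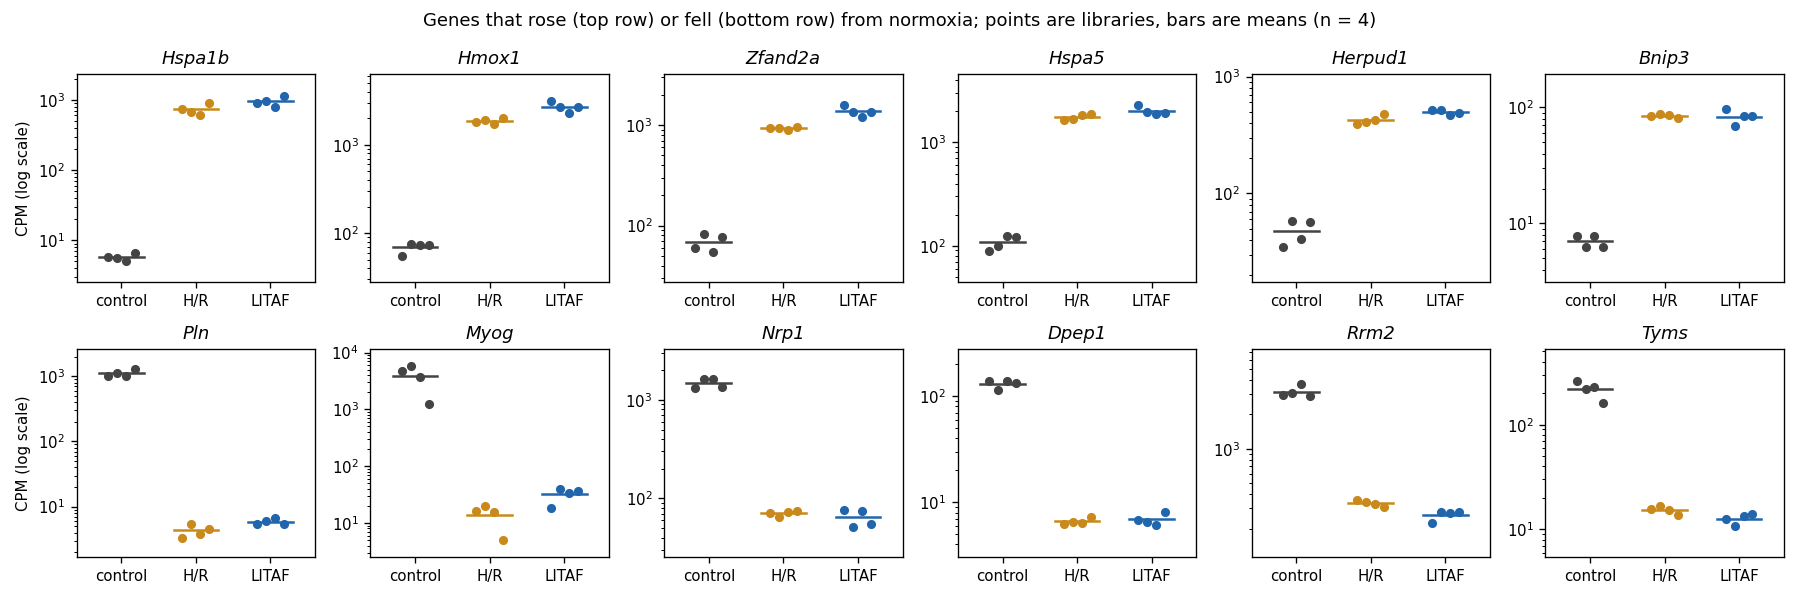
CPM per library (y axis, log scale) in the control, H/R and LITAF groups for 6 genes that rose and 6 that fell; each point is 1 library and each bar a group mean. In all 12 panels the 4 LITAF points lie apart from the 4 control points and on the same side as the H/R points, as for Hspa1b at 800 to 1153 CPM against 5.04 to 6.58 CPM in control.

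Genes of mitosis and DNA replication fell with a single exception. All 26 tested mitotic genes fell, each at least 2-fold (median log2 -2.24), and 28 of 29 genes of DNA replication and nucleotide synthesis fell (median log2 -2.12). In these bulk samples fewer cycling cells and less RNA per cycling cell cannot be told apart. Top2a, the mitotic DNA topoisomerase, was at 2365, 1852, 2114 and 1473 CPM in control and 177, 83, 169 and 118 CPM in the LITAF libraries (log2 -3.83 ± 0.22). Cyclin A2 (Ccna2) fell 9.55-fold, the spindle motor Kif11 7.69-fold and survivin (Birc5) 2.03-fold. In the replication list Rrm2, a subunit of ribonucleotide reductase, was at 2954, 3063, 3730 and 2874 CPM in control and 224, 279, 272 and 278 CPM in the LITAF libraries (12-fold lower). Tyms, thymidylate synthase, fell from 218 ± 42.6 to 12.7 ± 1.34 CPM, the helicase subunit Mcm6 from 3300 ± 260 to 463 ± 11.1 CPM and the nuclease-helicase Dna2 19-fold. The flap endonuclease Fen1 was the member that did not fall, at 65.7 and 66.8 CPM.

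Compared with the H/R group, the LITAF group differed in only 1 gene of each list: the spindle checkpoint kinase Ttk was lower by 0.76 and cyclin E2 (Ccne2) by 0.83 on the log2 scale. In the LITAF libraries Ttk was at 36.49, 16.33, 32.54 and 19.35 CPM and Ccne2 at 14.55, 6.61, 11.13 and 6.8 CPM. LITAF replicate 1 of Ccne2 lay within the H/R range of 13.07 to 19.52 CPM. Both genes are spread in the order of the first within-group component, whose part in this result was not tested. Of 14 genes of the G1 phase 5 fell, none rose and 8 were at the normoxia level. Over all tested genes 32.6% fell, 32% rose and 27.5% were at the normoxia level. The retinoblastoma relative Rbl1 fell from 124 ± 40.3 to 21.6 ± 7.75 CPM. Cyclin D1 (Ccnd1), with means of 289 and 253 CPM, and the inhibitor Cdkn1a, with 253 and 218 CPM, did not pass the test and had intervals inside 1.5-fold. The cell cycle factor E2f1 had 2 differing control rows, of 104 and 114 CPM, against 38.1 CPM in the LITAF group, and was not tested.

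Promoters of Tyms and Mcm6 show the letters of the E2F site, through which the cell cycle is known to control replication genes. A pair of E2F forms that differ in 1 central base was searched on both strands; capitals mark them, and in Mcm6 the forms overlap.
Tyms (chr9:120776084-120776333, minus strand): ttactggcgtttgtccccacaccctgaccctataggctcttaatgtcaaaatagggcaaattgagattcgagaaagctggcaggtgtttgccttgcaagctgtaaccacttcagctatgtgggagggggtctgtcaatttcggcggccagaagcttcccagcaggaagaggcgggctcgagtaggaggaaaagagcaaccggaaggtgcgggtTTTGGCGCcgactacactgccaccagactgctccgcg
Mcm6 (chr13:42404353-42404602, minus strand): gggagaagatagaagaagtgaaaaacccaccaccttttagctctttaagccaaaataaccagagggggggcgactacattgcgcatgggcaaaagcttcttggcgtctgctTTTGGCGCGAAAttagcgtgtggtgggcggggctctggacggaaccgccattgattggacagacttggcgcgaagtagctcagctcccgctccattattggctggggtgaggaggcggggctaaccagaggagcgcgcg
The first form, that of Tyms, was present in 5 of 25 replication genes with a promoter in the table (20%) and in 74 of 9395 tested genes (0.788%), and the second form in 4 (16%) and in 52 (0.553%). For the mitotic list the cell cycle homology region TTTGAA was present in 8 of 22 promoters (36.4%) against 10.2% of all.

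By the same rule the 3 largest falls were in muscle genes. Pln, phospholamban, the inhibitor of the calcium pump of the sarcoplasmic reticulum, was at 1021, 1128, 1027 and 1303 CPM in control and 5.46, 6.06, 6.62 and 5.47 CPM in the LITAF libraries (189-fold lower, log2 -7.57 ± 0.16, adjusted p = 1.88e-14). Myog, myogenin, the factor that starts myoblast differentiation, was at 4763, 5730, 3728 and 1257 CPM in control and 18, 39.5, 33.7 and 36.7 CPM in the LITAF libraries (log2 -6.92 ± 0.55). Mybph, a myosin-binding protein, was at 1101, 1162, 1240 and 613 CPM in control, 3.14, 2.97, 3.36 and 1.4 CPM after H/R and 7.05, 12, 11.8 and 13.4 CPM in the LITAF group. It remained 93-fold below control although it was 4.05-fold above the H/R group (adjusted p = 0.000397). Control replicate 4 was the lowest control library for both Myog and Mybph.

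The muscle list as a whole did not move 1 way. Of its 29 tested members 10 rose and 11 fell, beside 32% and 32.6% of all tested genes. The median log2 difference of the list from control was 0.07, against -1.02 for the H/R group. The giant sarcomere protein gene Ttn fell 9.84-fold and the myogenic factor Myod1 2.59-fold. Some structural genes of fetal and skeletal muscle went the other way, although the troponin T gene Tnnt3 fell (log2 -0.88). Actc1, cardiac alpha-actin, was at 0.816, 1.83, 1.7 and 0.863 CPM in control, 0.479, 0.856, 0.853 and 0.561 CPM after H/R, and 2.16, 6.06, 3.66 and 7.26 CPM in the LITAF group (log2 1.87 ± 0.35 from control). Myl11, a fast-muscle myosin light chain, was at 4.69, 5.67, 4.94 and 4.96 CPM in control and 8.87, 16.6, 15 and 20.7 CPM in the LITAF libraries, also above the 3.02 CPM of the H/R group (5.05-fold, adjusted p = 1.58e-05). Slow-muscle troponin I (Tnni1) rose 3.46-fold to a mean of 2.32 CPM (log2 1.79, and 2.46 without control replicate 2). The intermediate filament gene Des rose from 3.7 ± 0.676 to 15.2 ± 1.75 CPM. Des was already at 12.94, 12.95, 13.65 and 12.34 CPM after H/R.

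In all, 13 members of the muscle list were higher in the LITAF than in the H/R group and none lower. Of all tested genes 4.88% differed between these groups in either direction. Tnnt2, cardiac troponin T, was at 336, 306, 404 and 168 CPM in control, 73.6, 76.2, 78.9 and 42.9 CPM after H/R and 132, 178, 182 and 185 CPM in the LITAF group, between the others and overlapping control. Embryonic myosin Myh3 had means of 21 and 22 CPM in control and LITAF against 4.95 CPM after H/R, but its interval from control reached from -0.50 to 0.63 and was too wide to place it at the normoxia level. LITAF replicate 1 was the lowest LITAF library for Actc1, Tnni1, Myl11, Myh3 and Tnnt2. Their relation to the first within-group component was not tested.

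Of 11 genes of muscle calcium handling 5 rose and 5 fell, beside 32% and 32.6% of all tested genes. Besides Pln, the calcium buffer Casq2 fell from 1063 ± 206 to 448 ± 23.6 CPM, while the calcium pump Atp2a2, which phospholamban inhibits, rose from 551 ± 71.8 to 764 ± 27.3 CPM. In the smooth muscle list 10 of 19 rose and 6 fell, beside the same 32% and 32.6%. Its coactivator myocardin (Myocd) fell from 544 ± 56.9 to 104 ± 9.72 CPM, whereas calponin (Cnn1) rose 3.21-fold and the serum response factor Srf rose from 56.6 ± 13.5 to 152 ± 24.6 CPM. Srf was also 1.75-fold above the H/R group (adjusted p = 0.00482).

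Genes of the extracellular matrix were mostly lower: 18 of 32 fell and 6 rose (median log2 -0.93). Col3a1, a fibrillar collagen, was at 5912, 9536, 7279 and 8243 CPM in control, 1323, 1298, 1165 and 1161 CPM after H/R and 1629, 2079, 1806 and 2026 CPM in the LITAF group. It fell by 2.04 ± 0.13 from control and stood 1.52-fold above the H/R group. Col1a1 fell 2.16-fold and the matricellular protein Thbs1 3.31-fold. Biglycan (Bgn) rose 1.72-fold and Serpinh1, the collagen chaperone of the ER, 1.77-fold. In all, 10 matrix genes were higher in the LITAF than in the H/R group and none lower. Col6a1 fell from 32.3 ± 17 to 5.71 ± 0.65 CPM, with control replicate 2 at 6.78 CPM and the other control libraries at 39.8 to 41.8 CPM.

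Among 14 proteases of the matrix and their inhibitors 10 fell and 4 rose. The aggrecanase-family gene Adamts9 fell from 597 ± 88.2 to 42.8 ± 5.64 CPM. Adamts1 was at 1168, 951, 957 and 985 CPM in control, 194, 190, 180 and 197 CPM after H/R and 326, 331, 329 and 358 CPM in the LITAF group, so that every LITAF library lay between the other groups. The urokinase receptor Plaur rose 2.78-fold.

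Genes of signalling families moved in both directions. In the IGF system 6 of 14 fell and 3 rose, beside 32.6% and 32% of all tested genes. The binding protein gene Igfbp5 was at 154, 221, 239 and 194 CPM in control, 6.02, 6.27, 5.76 and 5.61 CPM after H/R and 17.6, 10.8, 12 and 12.2 CPM in the LITAF group. The growth factor Igf2 fell from 421 ± 74.8 to 137 ± 3.63 CPM and stood 2.33-fold above the H/R group (adjusted p = 8.46e-06). Igfbp4 rose from 8.25 ± 1.2 to 32.4 ± 1.76 CPM. Of 19 genes of the BMP pathway 10 fell and 5 rose, with the transcription factor Atoh8 falling from 306 ± 45.3 to 27.7 ± 0.739 CPM and Id2, a BMP-induced inhibitor of myogenic factors, 2.73-fold. Of 25 interferon response genes 14 fell and 7 rose. The antiviral gene Ifit1 fell from 41.6 ± 4.95 to 3.85 ± 0.565 CPM, while the immunoproteasome subunit Psmb8 rose 2.65-fold.

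The remaining large falls were in single genes. Nrp1, a receptor for semaphorins and VEGF, fell from 1476 ± 171 to 64.4 ± 13.3 CPM, and the dipeptidase Dpep1 from 131 ± 10.8 to 6.88 ± 0.881 CPM. The adaptor Pik3ap1 fell 28.2-fold, the exchange factor Arhgef37 26.1-fold, the zinc finger gene Zfp11 21.9-fold and the ferritin receptor Scara5 19.6-fold. Adora1, the A1 adenosine receptor, was at 124, 80.6, 116 and 74 CPM in control and 3.58, 5.13, 4.89 and 5.01 CPM in the LITAF libraries. It was 2.51-fold above the H/R group yet far below control. Il1rl1, the receptor of interleukin 33, fell from 272 ± 18.1 to 14.6 ± 3.04 CPM, and the H/R group was at 22.9 CPM.

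Synthesis of sterols and fatty acids shifted by less: 15 of 26 genes fell and 4 rose (median log2 -0.43), and only 1 of them changed at least 2-fold. That gene was Acat2, which makes acetoacetyl-CoA, from 470 ± 71.2 to 173 ± 20.3 CPM. Mvd, an enzyme of the mevalonate pathway, rose 1.88-fold.

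Ribosomal protein genes rose together in the cytosolic set. Of 57 tested, 56 rose and none fell (median log2 1.49, against 1.29 in the H/R group), and no member differed between the LITAF and H/R groups. Rplp0, a stalk protein of the large subunit, was at 1190, 1055, 1129 and 1260 CPM in control and 2715, 3870, 3311 and 3630 CPM in the LITAF libraries. Rps15, of the small subunit, rose 4.14-fold. Rpl37a was the member that did not pass (log2 0.26 ± 0.12). These genes have many near-identical processed copies, and only 12 of the 57 had whole-number values in all columns; all 12 rose. The part of the unequal share of non-whole values between the columns in this result was not tested.

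Other parts of the protein and energy machinery moved less. Of 31 proteasome subunits 9 rose and 4 fell, beside 32% and 32.6% of all tested genes, and 21 were at the normoxia level. Without control replicate 4 the falls were 10 and the rises 7. Nuclear-encoded respiratory chain genes rose in 16 of 35 cases and fell in 6, with Cox4i1, a subunit of cytochrome oxidase, from 115 ± 9.31 to 264 ± 37.5 CPM. Of the 13 genes encoded by mitochondrial DNA 5 fell, beside 32.6% of all tested genes, and 8 were at the normoxia level, beside 27.5%. None of the 5 fell at least 2-fold. The falls were 3 without control replicate 2, and 2 without control replicate 1 or LITAF replicate 2 or 4 and with library totals. Over all settings the lowest count was 1. Lysosomal and V-ATPase genes rose in 21 of 28 cases and none fell: the protease Ctsb went from 307 ± 49.9 to 707 ± 57.1 CPM and the lysosomal regulator Tfeb rose 3.06-fold. In autophagy 18 of 26 rose and 2 fell, with the ATG8-family gene Gabarapl1 from 9.45 ± 0.708 to 44.1 ± 2.38 CPM.

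The known partners of LITAF were followed as a list with Litaf itself and the NEDD4 and ESCRT families. Of its 29 genes 18 rose, the overexpressed Litaf among them, and 3 fell. The ESCRT-III subunit Chmp2a rose from 45.7 ± 8.24 to 120 ± 12 CPM and the ligase gene Wwp2 from 20 ± 2.56 to 50.3 ± 2.87 CPM. Nedd4, the ligase that binds LITAF, was at 1785, 1965, 1935 and 1496 CPM in control and 1384, 846, 1224 and 1060 CPM in the LITAF libraries (log2 -0.67 ± 0.13). Wwp1 fell 2.38-fold. Cdip1, a relative of LITAF with the same membrane domain, rose 1.62-fold. Apart from Litaf itself, no member of this list differed between the LITAF and H/R groups.

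Of 16 clock genes 11 rose and 1 fell (median log2 0.76, against 0.29 in the H/R group). The output factor Dbp rose from 0.689 ± 0.101 to 7.03 ± 0.712 CPM. Nr1d1, the repressor REV-ERB alpha, was at 8.97, 10.3, 10 and 8.47 CPM in control, 26.9, 28.7, 28.4 and 28.7 CPM after H/R and 42.6, 48.7, 46.4 and 52 CPM in the LITAF group, so the 3 groups were fully apart. Per1 fell 1.68-fold.

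**Figure D3:**
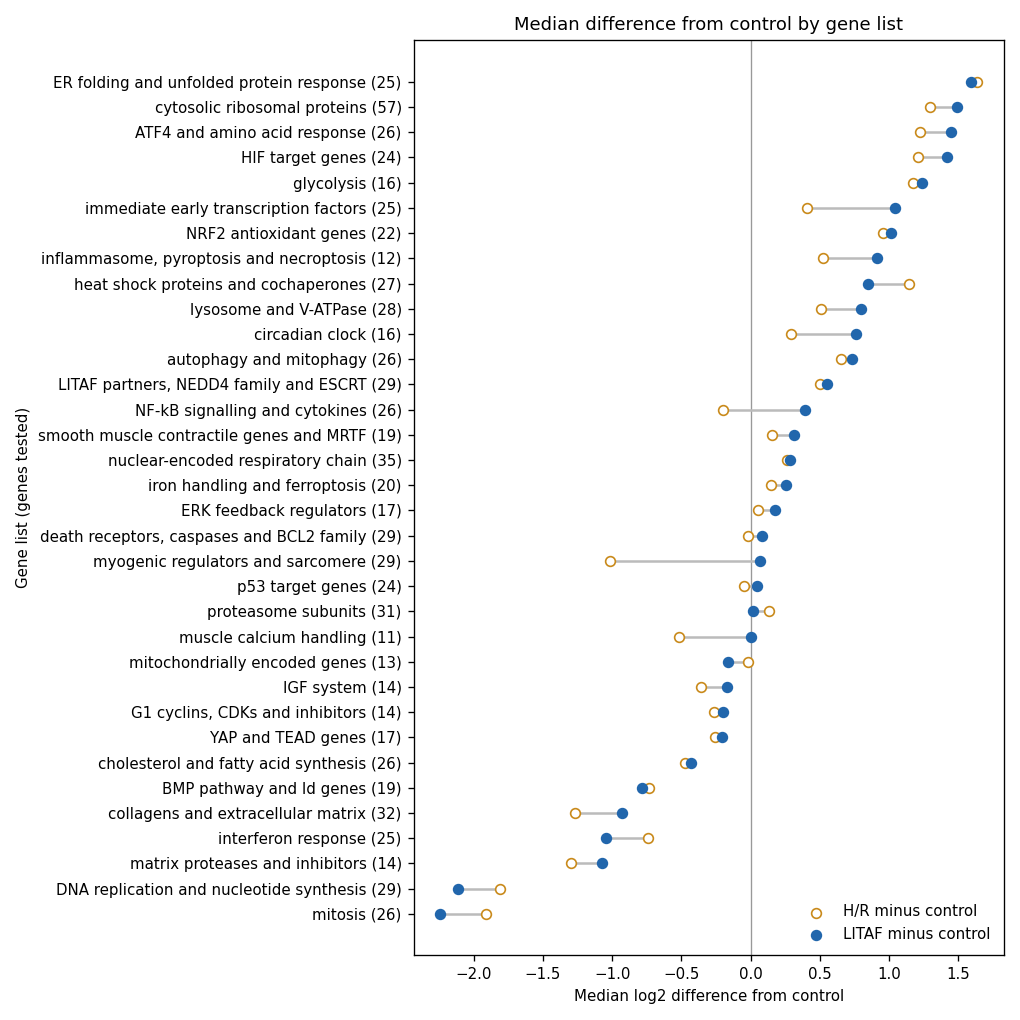
Median log2 difference from control (x axis) of each gene list other than the cell type markers (y axis, with the number of genes tested) in the LITAF group (filled) and the H/R group (open); both use the same control libraries. Stress and ribosomal lists lie to the right with medians of up to 1.59, replication and mitosis lie at -2.12 and -2.24, and the medians of the muscle and immediate early lists differ most between the 2 groups of symbols.

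The 5 genes back at the normoxia level had all been lowered in the H/R group, and all 5 were higher in the LITAF than in the H/R group. Egr1, an immediate early zinc finger factor, was at 1301, 992, 1052 and 1014 CPM in control, 293, 228, 247 and 228 CPM after H/R and 1017, 987, 989 and 928 CPM in the LITAF group. Its difference from control was -0.15 ± 0.11 (interval -0.38 to 0.08), and it was 3.94-fold above the H/R group (adjusted p = 2.56e-08). Fmod, the collagen-binding proteoglycan fibromodulin, was at 10.2, 18.6, 16.8 and 12.1 CPM in control, 2.08, 2.97, 2.99 and 2.47 CPM after H/R and 15.2, 14.6, 12.9 and 13.1 CPM in the LITAF group (interval -0.41 to 0.32). For both, LITAF and control libraries overlapped and lay wholly above the H/R libraries.

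Iho1, a gene known from meiotic recombination, was at 6.73, 5, 6.59 and 6.63 CPM in control and 6.31, 4.81, 5.86 and 5.01 CPM in the LITAF libraries, against 2.51 CPM after H/R. Igf2r, the receptor that clears IGF2 and carries lysosomal enzymes, was at 57, 69.9, 62.9 and 59.3 CPM in control and 46.6, 46.9, 47.1 and 51.6 CPM in the LITAF libraries, which did not overlap. It was inside the 1.5-fold interval and also below control (log2 -0.37 ± 0.10, adjusted p = 0.00334), so its place at the normoxia level depends on the width allowed. Of 24 settings, the reported one included, Egr1 and Fmod kept this state in 23, Iho1 in 21 and Igf2r in 11.

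The 3 genes in the opposite direction, lowered in the H/R group, were above control in the LITAF group. Egr3, a relative of Egr1, was at 3.42, 1.61, 1.9 and 2.27 CPM in control, 1.06, 0.741, 0.693 and 0.841 CPM after H/R and 4.43, 3.22, 3.93 and 3.92 CPM in the LITAF group (log2 0.75 ± 0.22 from control). Pycard, the inflammasome adaptor ASC, was at 7.03, 4.22, 5.56 and 3.02 CPM in control, 2.98, 1.71, 2.08 and 1.63 CPM after H/R and 7.73, 8.74, 7.58 and 8.29 CPM in the LITAF group (log2 0.70 ± 0.22, adjusted p = 0.0104). Chrnd, a subunit of the muscle acetylcholine receptor, was low throughout, with means of 0.53, 0.208 and 1.29 CPM in that order. Each of the 3 was more than 3-fold above the H/R group.

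**Figure D4:**
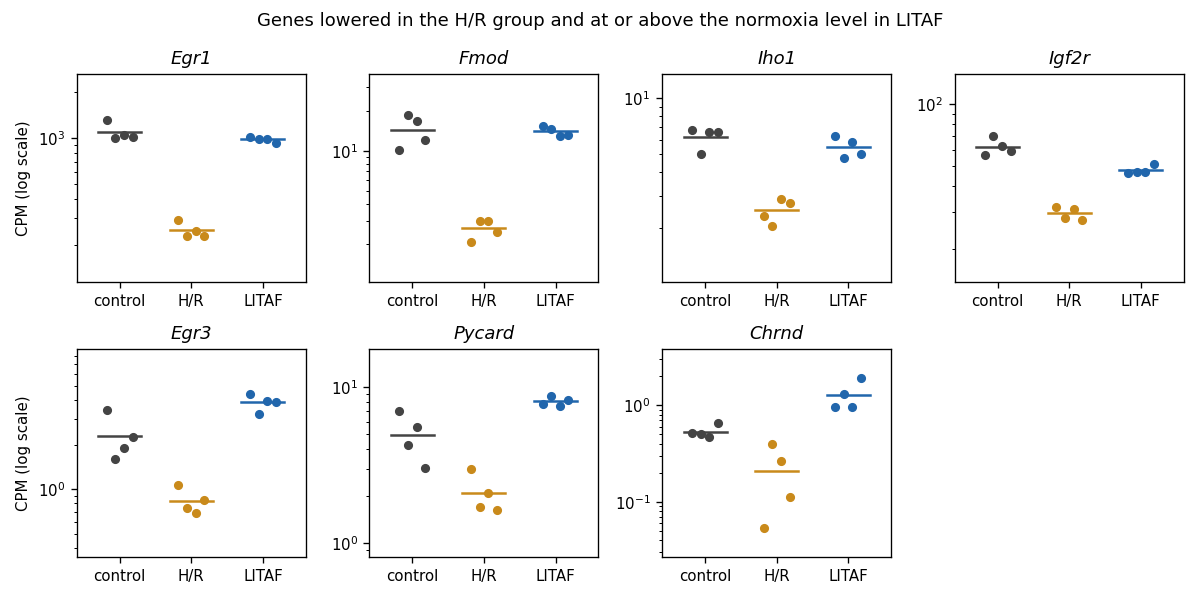
CPM per library (y axis, log scale) in the control, H/R and LITAF groups for 4 genes at the normoxia level in the LITAF group and the 3 above it; each point is 1 library and each bar a group mean. Egr1 and Fmod dip in the H/R group and return, and Egr3, Pycard and Chrnd dip and end above the control mean.

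Egr1 belongs to the immediate early factors, genes that growth factor and stress kinases switch on within minutes without new protein synthesis. As a list they were the group in which the LITAF libraries departed most often from the H/R group: 17 of 25 were higher than after H/R and none lower. Against control 19 rose and 1 fell (median log2 1.05, against 0.41 in the H/R group). Fos was at 32.6, 28.4, 24.9 and 26.8 CPM in control, 47.5, 40.6, 39.8 and 40.3 CPM after H/R and 128, 104, 124 and 102 CPM in the LITAF group (2.72-fold above H/R, adjusted p = 1.82e-06). Fosb, its close relative, rose from 14.5 ± 0.879 to 105 ± 8.69 CPM and Junb, their partner in AP-1, from 129 ± 11.9 to 389 ± 34.2 CPM. Atf3, a stress-induced repressor, rose 7.82-fold.

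Egr2 and Arc were highest in the LITAF group. Egr2 was at 20.7, 12.7, 16.1 and 15.8 CPM in control, 13.4, 10.5, 11.2 and 10.6 CPM after H/R and 27.4, 28.7, 27.9 and 32 CPM in the LITAF group. Arc, known from neuronal synapses, had means of 10.6, 7.85 and 21.9 CPM in the same order. Btg2, an antiproliferative factor, stood at 353 ± 77.5 CPM in control and 446 ± 9.11 CPM in the LITAF group (adjusted p = 0.0304); this call was lost without control replicate 3 or 4, without LITAF replicate 2 or 3 and in a fit of the 8 libraries alone. Nr4a1 rose by a log2 of 0.47 ± 0.18, with overlapping groups, and lost its call without control replicate 4 and without LITAF replicate 2 or 4. Klf2 fell from 61.3 ± 13.9 to 36 ± 1.56 CPM. Fosl1, with 2 differing control rows of 36 and 38.2 CPM, was at 199.5 CPM in the LITAF group and was not tested.

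The promoter of Egr2 is shown because it holds the CArG box, the known binding element of serum response factor. Binding was not measured, and a part of this factor in the changes was not tested.
Egr2 (chr20:21054442-21054691, minus strand): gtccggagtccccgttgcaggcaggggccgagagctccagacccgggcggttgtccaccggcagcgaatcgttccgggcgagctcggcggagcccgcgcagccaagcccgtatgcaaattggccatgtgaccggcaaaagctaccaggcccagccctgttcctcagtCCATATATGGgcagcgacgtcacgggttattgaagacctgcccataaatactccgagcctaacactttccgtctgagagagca
Capitals mark the CArG box, searched on both strands. This element was added to the search after the expression data had been seen. It was found in 4 of 15 immediate early genes with a promoter in the table (26.7%), namely Egr1, Egr2, Klf6 and Zfp36, and in 123 of 9395 tested genes (1.31%). The cyclic AMP response element was in 4 of the 15 as well, against 3.04% of all. Further elements were searched in the same way. The antioxidant response element core was in 3 of 17 NRF2 promoters (17.6%), against 12.4% of all. The sterol regulatory element was in 0 of 17 promoters of the sterol and fatty acid list, against 0.958% of all. The hypoxia response element core was in 11 of 21 promoters of the hypoxia list (52.4%, against 22.7%), and ER stress element II in 2 of 19 (10.5%, against 0.0852%).

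Feedback regulators of the ERK kinase pathway, which limit the signal that induces immediate early genes, were divided: 7 of 17 rose, 4 fell and 5 were at the normoxia level, and 9 were higher than in the H/R group with none lower. Over all tested genes 32% rose, 32.6% fell and 27.5% were at the normoxia level, and 4.88% differed from the H/R group. Dusp5, a nuclear ERK phosphatase, was at 4.54, 6.56, 6.48 and 8.14 CPM in control, 29.4, 29.1, 25.8 and 31.1 CPM after H/R and 92.5, 82.5, 74.2 and 77.4 CPM in the LITAF group. It rose 12.7-fold from control and 2.83-fold over H/R (adjusted p = 5.65e-06). Dusp6, the cytoplasmic ERK phosphatase, was at 25.8, 28, 33.1 and 26.7 CPM in control and 57.5, 60.6, 51.6 and 53.4 CPM in the LITAF libraries, and the H/R group was at 25 CPM. Spry2 was at 36.3 CPM in both groups, with an interval of -0.22 to 0.22, after 25.2 CPM in the H/R group. Dusp1 likewise was inside the 1.5-fold interval (296 ± 63.6 and 307 ± 26 CPM), whereas Spred2 remained 3.8-fold below control.

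A separate class had the H/R group at the normoxia level and the LITAF group at least 2-fold away from control, with a called difference between the LITAF and H/R groups. It held 9 genes, 8 higher and 1 lower. Litaf was the largest; it was above control in the H/R group, but with an interval of 0.09 to 0.52 that lay within 1.5-fold. Lif, a cytokine of the interleukin 6 family, was at 43.8, 56.9, 55.4 and 31.5 CPM in control, 54.5, 58, 56.8 and 49.7 CPM after H/R and 164, 182, 159 and 161 CPM in the LITAF group (log2 1.83 ± 0.15). Cxcl1, a neutrophil-attracting chemokine, was at 9.07, 7.45, 6.59 and 6.31 CPM in control, 7.46, 6.27, 5.44 and 6.62 CPM after H/R and 31, 21.2, 19.1 and 22.1 CPM in the LITAF group (log2 1.67 ± 0.17). In both, the LITAF libraries were alone in being high.

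Ccn1, a matricellular protein and target of YAP and serum response factor, was at 316, 320, 320 and 385 CPM in control, 293, 281, 298 and 294 CPM after H/R and 762, 986, 883 and 904 CPM in the LITAF group (log2 1.40 ± 0.10). Its relative Ccn2 stayed below control (1.98-fold). Of 17 YAP and TEAD genes 3 rose and 5 fell, beside 32% and 32.6% of all tested genes. Ccn1 and Ccn2 were the 2 that were higher than in the H/R group. The imprinted zinc finger gene Plagl1 rose 2.48-fold, the secreted chaperone clusterin (Clu) 2.17-fold, and the ephrin ligands Efnb1 2.41-fold and Efnb2 2.01-fold. Efnb2 was the smallest rise of the class and is named because the class is small. The zinc finger gene Zfp81 fell from 5.65 to 2.7 CPM. Ccn1 was in this class in 23 of 24 settings and Litaf in 21, but Plagl1 in 10, Zfp81 in 9 and Efnb2 in 8. The class held 25 genes without LITAF replicate 1, and 6 without control replicate 2 or 4 or without H/R replicate 3 or 4.

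**Figure D5:**
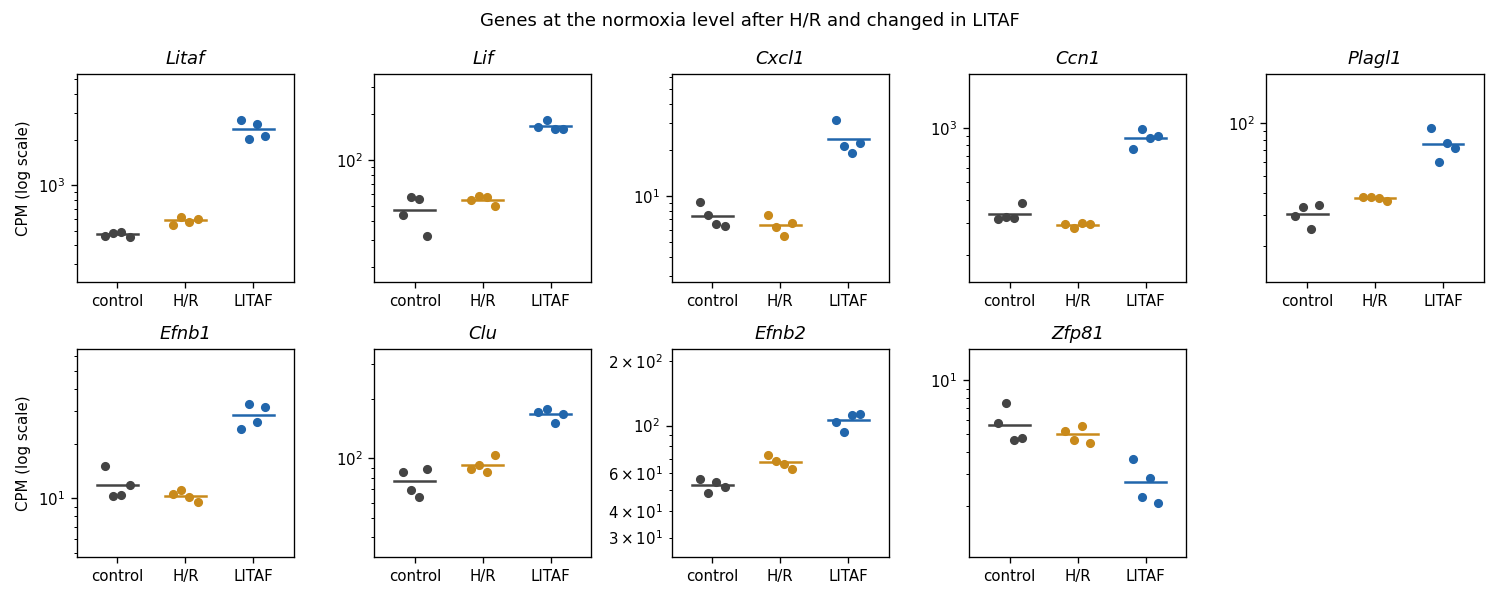
CPM per library (y axis, log scale) in the control, H/R and LITAF groups for the 9 genes at the normoxia level after H/R and changed in the LITAF group; each point is 1 library and each bar a group mean. The LITAF points of Litaf, Lif, Cxcl1 and Ccn1 lie above both other groups, and those of Zfp81 lie below.

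More widely, 283 genes were at least 2-fold above control in the LITAF group without having been raised at least 2-fold in the H/R group, and 79 of these were also above the H/R group; for falls the numbers were 286 and 24. Casp8 and Tnfaip3 were among the 79. Casp8, the initiator caspase of death receptors, was at 4.79, 4.72, 4.42 and 4.53 CPM in control, 8.84, 8.78, 10.4 and 8.25 CPM after H/R and 37.1, 35.5, 34.6 and 37.7 CPM in the LITAF group. It rose 7.83-fold from control and was 3.98-fold above the H/R group (adjusted p = 1.38e-08), with the 3 groups fully apart. Tnfaip3, the ubiquitin-editing NF-kB inhibitor A20, was at 38.7, 37.1, 36.8 and 27.1 CPM in control, 22.7, 21.1, 19.7 and 22.9 CPM after H/R and 103, 77, 75.5 and 82.2 CPM in the LITAF group (2.42-fold above control).

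In the NF-kB and cytokine list 11 of 26 rose and 6 fell, and 9 were higher and 2 lower than in the H/R group. Over all tested genes 32% rose and 32.6% fell, and 4.88% differed from the H/R group. The cytokine Il6 rose from 3.24 ± 0.696 to 11.5 ± 2.89 CPM. The chemokine Ccl2 was at 9.58, 5.56, 4.27 and 7.6 CPM in control, 2.45, 1.03, 1.07 and 1.51 CPM after H/R and 7.96, 4.59, 7.64 and 5.3 CPM in the LITAF group. Its libraries overlapped control, but the interval of -0.65 to 0.48 was too wide to place it at the normoxia level. The chemokine Cxcl12 went further down, from 227 ± 30.3 CPM in control through 56 CPM after H/R to 33 ± 3.17 CPM. The NF-kB subunit Rela was at 128 and 130 CPM, and Tnf itself, the gene LITAF was first linked to, was removed by the filter on low counts.

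Of 12 tested genes of the inflammasome, pyroptosis and necroptosis 9 rose and 2 fell. Casp4, the caspase that senses lipopolysaccharide, rose from 5 ± 0.51 to 44.3 ± 11 CPM. Gsdmd, the pore former gasdermin D, was at 52.2, 59.1, 56.8 and 69.2 CPM in control, 100, 99, 98.3 and 107 CPM after H/R and 184, 164, 142 and 210 CPM in the LITAF group. Il18 was at 1.43, 8.17, 1.44 and 1.24 CPM in control and 21.8, 18.7, 19.4 and 19.2 CPM in the LITAF libraries. The LITAF libraries were all higher, while control replicate 2 stood apart from its group. The log2 difference was 2.70, and 3.85 without that library; edgeR called the difference and DESeq2 gave no adjusted p for it. The sensor Nlrp3 rose 1.61-fold with overlapping groups, and the necroptosis effector Mlkl fell 2.12-fold. In the list of death receptors, caspases and BCL2 proteins 10 of 29 rose and 8 fell, beside 32% and 32.6% of all tested genes. The pore former Bax rose from 64 ± 9.99 to 189 ± 10.1 CPM. The death receptor Fas was at the normoxia level.

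Of 24 targets of p53 11 rose and 9 fell, beside the same 32% and 32.6%. The stress sensor Gadd45a rose 5.81-fold, cyclin G1 (Ccng1) fell from 600 ± 86.4 to 167 ± 42 CPM, and Mdm2, which degrades p53, was at 253 and 256 CPM. Bax counts under both this list and the previous one, and other genes are shared between lists as well. Hmox1 counts under the NRF2 and iron lists, and Bnip3 under the hypoxia, autophagy and death receptor lists.

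Markers of other cell types were examined beside these results. Of 6 leukocyte markers in the table, 4 were too low to test and the other 2 were under 1 CPM in each group; Ptprc had at most 2 counts in any control or LITAF library. Of 8 endothelial markers in the table, 7 were too low to test, and the one that remained, Flt1, fell from 96.8 to 47.9 CPM. Of 7 fibroblast markers 6 were too low, with Dcn at 0 counts in all libraries, and Thy1 was at 254 and 225 CPM. Epithelial markers were at or near 0 except Krt8, at 34.7 and 63.5 CPM. Defining genes of mature cardiomyocytes were at or near 0: Tnni3 and Nppb had at most 2 counts in any library and Myh6 at most 18, while the cardiac factors Gata4 (33 and 16 CPM) and Nkx2-5 (6.84 and 17.1 CPM) were present. The myoblast factors Myod1 and Myog were present in all 8 libraries.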

How the data were processed

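The table holds estimated counts per gene, deposited by the authors for 12 libraries of polyA RNA; values that are not whole were rounded before testing. No source used here names an aligner, counter or genome build. DESeq2 and edgeR are named, without version or role, per the submitters' processing notes. Of 16074 gene IDs, 128 had more than 1 row: identical rows were merged for 56, and 72 whose rows differed, in the control columns alone, were left out of the tests, which left 16002 genes. After edgeR's filter on low counts 11398 were tested with edgeR 4.0.16 (quasi-likelihood, robust, TMM scaling, R 4.3.3) in 1 fit of all 12 libraries, with Benjamini-Hochberg adjustment over all genes and calls made at 0.05. Variation between replicates was 14.5% (edgeR's common BCV), a single value over all groups, whose spread was unequal. Squared differences between 2 libraries, relative to sampling noise, averaged 44.3 to 52.8 in control. They averaged 3.49 to 13.7 in the H/R group and 8.63 to 73.3 in the LITAF group. The fit was tested on simulated data of 11323 genes for the LITAF and control comparison: it called 33 of 50 genes given a 1.5-fold change, 49 of 50 given a 2-fold change, and 14 of 11123 left unchanged. In those data 83.5% of unchanged genes came out at the normoxia level. There 11123 of 11323 genes were left unchanged, whereas 64.6% of tested genes passed between the LITAF and control libraries. How these rates hold with that many changed genes, or with spread that differs between groups, was not tested.

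Genes were named by rule: Litaf, the 12 largest rises and 12 largest falls with a mean log2 CPM of at least 2 and groups that did not overlap, the genes back at the normoxia level, the 8 largest of those changed in the LITAF group alone, and members of 39 gene lists. The members and the lists were chosen with earlier results of these data known. Promoters are RefSeq's for GRCr8, matched by symbol for 9395 tested genes. No 2 libraries of a group agreed within sampling noise. Replicate numbers come from the labels. Same-numbered libraries deviated together between control and H/R (correlations of 0.343 to 0.574). Between H/R and LITAF the same-numbered correlations were 0.164 to 0.41, but some unlike numbers correlated more. H/R replicate 4 was at 0.35 with LITAF replicate 2 and at 0.164 with LITAF replicate 4. Alternatives were other scalings, DESeq2 1.42.0, no filter, fewer libraries, a replicate block, whole-number genes alone, a stricter threshold and other widths of the normoxia level. Values of some genes, among them 1 of the 5 back at the normoxia level, are not reported here.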

Additional observations from a re-analysis of the deposited data

Results flagged for a closer look

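In groups of 4 libraries a single library stood far from the other 3 in 25 of 336 combinations of a named gene with the control or LITAF group. Chance flags about 1 in 20 groups.

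In the control group the low libraries were replicate 1 for Hmox1 (55.3 CPM against 73.3 to 75.2), replicate 2 for Srxn1 (0.889 against 1.34 to 1.4), Col6a1 (6.78 against 39.7 to 41.8) and Iho1 (5 against 6.59 to 6.73), replicate 3 for Chmp2a (33.4 against 49 to 51.3), and replicate 4 for Tnfaip3 (27.1 against 36.8 to 38.7) and Fen1 (58.5 against 67.4 to 69). The high control libraries were replicate 1 for Pfkl (27 CPM against 18.5 to 19.6) and Adamts1 (1170 against 951 to 985), replicate 2 for Il18 (8.17 against 1.24 to 1.44), replicate 3 for Serpinh1 (3110 against 2520 to 2600), and replicate 4 for Ccn1 (385 against 316 to 320) and Igfbp4 (10 against 7.54 to 7.87).

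In the LITAF group replicate 1 was low for Mlkl (6.59 CPM against 9.29 to 9.79), Rrm2 (225 against 272 to 279), Tnni1 (1.36 against 2.51 to 2.71), Tnnt2 (132 against 178 to 185) and Adora1 (3.58 against 4.89 to 5.13), and high for Slc40a1 (37.6 against 18.8 to 20.6) and Scara5 (19 against 10 to 11.4). Replicate 2 was high for Ccnd1 (268 CPM against 246 to 249) and low for Myocd (89.8 against 107 to 111). Replicate 3 was high for Pik3ap1 (3.93 CPM against 2.82 to 2.96), and replicate 4 for Adamts1 (358 against 326 to 331) and Igf2r (51.6 against 46.6 to 47.1).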

How the results depend on the processing

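The count of genes called between the LITAF and control groups, 7366, lay between 5776 (genes with whole-number values alone, so fewer genes tested) and 7672 (replicate block), and the Litaf difference between 2.30 and 2.40 on the log2 scale outside the fits that left out a library. A fit of the 8 control and LITAF libraries alone, without the H/R group, called 6656 of 11293 genes. The 2 small classes depended on the width of the normoxia level by construction: with a narrower width both held 0 genes, and with 2-fold 71 genes were back at the normoxia level in place of 5 and 62 were changed in the LITAF group alone in place of 9. Upper-quartile scaling left 6 of the latter. Leaving out 1 library in turn gave 3 to 7 genes back at the normoxia level and 6 to 25 changed in the LITAF group alone; the cause was not tested. Leaving out 1 library also moved small list counts: rises in the IGF system to 5 and of YAP and TEAD genes to 5 without control replicate 4, rises of matrix proteases to 2 without control replicate 1 or 3 or LITAF replicate 4, and falls of clock genes to 2 without control replicate 2 and 3 without LITAF replicate 1.

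Same-numbered control and LITAF libraries had correlated deviations of 0.0766, 0.0855, 0.197 and 0.0947, so these share only a number. Between control and H/R every library correlated best with its own number; between H/R and LITAF this was not so. A replicate block called 7672 genes, placed 8 genes at the normoxia level and kept Litaf at 2.30, with 84.7% of 2569 genes still changed and 13 changed in the LITAF group alone. Of 3817 gene values under other settings 3788 kept their side of the threshold, 11 lost the call and 18 gained it. In 0 cases did the direction change where either fit called the gene. Changes of direction in genes that neither fit called were not counted. Calls were lost for Btg2, Nr4a1 and Pycard (the last at an adjusted p under 0.01).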
